A study of Mus musculus with 16 samples.

Results

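Fibroblast growth factors (FGFs) are secreted ligands that bind receptor tyrosine kinases on neighbouring cells, in a complex with heparan sulfate chains of the cell surface. The bound receptors signal through adaptor proteins to the RAS-ERK kinase chain, which switches on target genes, several of which dampen the signal again. In the inner ear this pathway is known for inducing the otic placode, for the outgrowth of the otocyst and for placing hair cells and supporting cells in the organ of Corti. Here 6 ligand genes (Fgf1, Fgf2, Fgf3, Fgf7, Fgf8 and Fgf10) and 4 receptor genes (Fgfr1, Fgfr2, Fgfr3 and Fgfr4) were followed, 10 of the 8251 genes that the chip names by a single symbol. They were taken by symbol, and 13 probe sets carry such a symbol alone, 6 for ligands and 7 for receptors.

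RNA came from whole inner ears of newborn (P0) COUP-TFI-/- mice and of newborn wild-type mice, both of strain 129SvEv. COUP-TFI (gene Nr2f1) is an orphan nuclear receptor, a transcription factor that binds DNA, and the mutants lack it in the whole animal and not in 1 cell type of the ear. Each Affymetrix MG-U74Av2 chip received a pool of RNA from several ears, and by the methods the hybridizations were done on 2 occasions, each with 1 pool per genotype on duplicate chips. The labels number the chips A1, A2, B1 and B2 in each genotype without saying what the letter stands for, and here it was read as the occasion (set A or set B). There were thus 2 pools and 4 chips per genotype, and each of the 8 chips was deposited with a GCRMA value (log2) and a dChip value (intensity on a linear scale) per probe set.

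Nr2f1 was measured first as a check of the labels. On the GCRMA scale the COUP-TFI-/- chips gave 5.27, 5.08, 4.68 and 4.69, against 8.83, 8.72, 7.90 and 7.74 on the wild-type chips, so that no mutant chip reached the wild-type range. The difference in limma was -3.37 ± 0.11 (SE, adjusted p = 5.9e-11). Chips of a genotype with the same letter correlated with r between 0.996 and 0.997 over all probe sets, and those with the same number and another letter with r between 0.979 and 0.987, and the chip medians lay between 7.20 and 7.23 for GCRMA and between 291 and 305 for dChip. Markers of the labelled tissue were uneven in level. Oc90, an otoconial protein, had 11.91 in COUP-TFI-/- and 12.05 in wild-type. Otog, a component of the membranes over the sensory cells, had 8.84 in COUP-TFI-/- and 8.84 in wild-type. Others lay below the GCRMA chip medians in both genotypes. Among them were Atoh1 (6.72 in COUP-TFI-/- and 6.69 in wild-type), Gfi1 (5.28 and 5.21) and Prox1 (4.45 and 4.46). The hair cell marker Pvalb lay above them, at 11.74 and 11.83. Of 13 measured supporting cell markers, 10 were lower in COUP-TFI-/- and 3 higher, with no call. Their median difference was -0.03 (log2), beside 0.00 over all probe sets. The lowest was -0.48, for Tectb (8.39 in COUP-TFI-/- and 8.87 in wild-type). Of 7 measured hair cell markers, 3 were lower and 4 higher. Striated muscle markers differed between the pools, however, with mean levels over 19 measured genes of 8.09 (set A) and 8.24 (set B) in COUP-TFI-/- and 8.04 (set A) and 7.60 (set B) in wild-type, and 2 of the 19, Myh3 and Myh8, called higher in COUP-TFI-/-.

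None of the 13 FGF probe sets was called different between COUP-TFI-/- and wild-type ears by limma with Benjamini-Hochberg adjustment over all probe sets, with either normalization. The adjusted p was 1.00 for each of them. The background is small as well, with 0.105% of 12422 probe sets called on GCRMA values and 0.00805% of 12421 on dChip values. At an unadjusted p under 0.05 the count was 0 of the 13 on GCRMA values, beside 4.58% of all probe sets. On dChip values it was 2 of the 13, beside 2.13%. The GCRMA differences (COUP-TFI-/- minus wild-type, log2) ran from -0.20 to 0.19 with a median of 0.06, beside 0.00 over all probe sets, and their SEs ran from 0.10 to 0.11. The 95% intervals of the 13 differences reached from a bound of 0.744-fold to a bound of 1.32-fold COUP-TFI-/- over wild-type on GCRMA values, and from 0.570-fold to 1.31-fold on dChip values, so changes beyond these bounds were outside every interval. In whole-ear RNA, fewer cells of a type and less RNA per cell cannot be told apart.

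**Figure D1:**
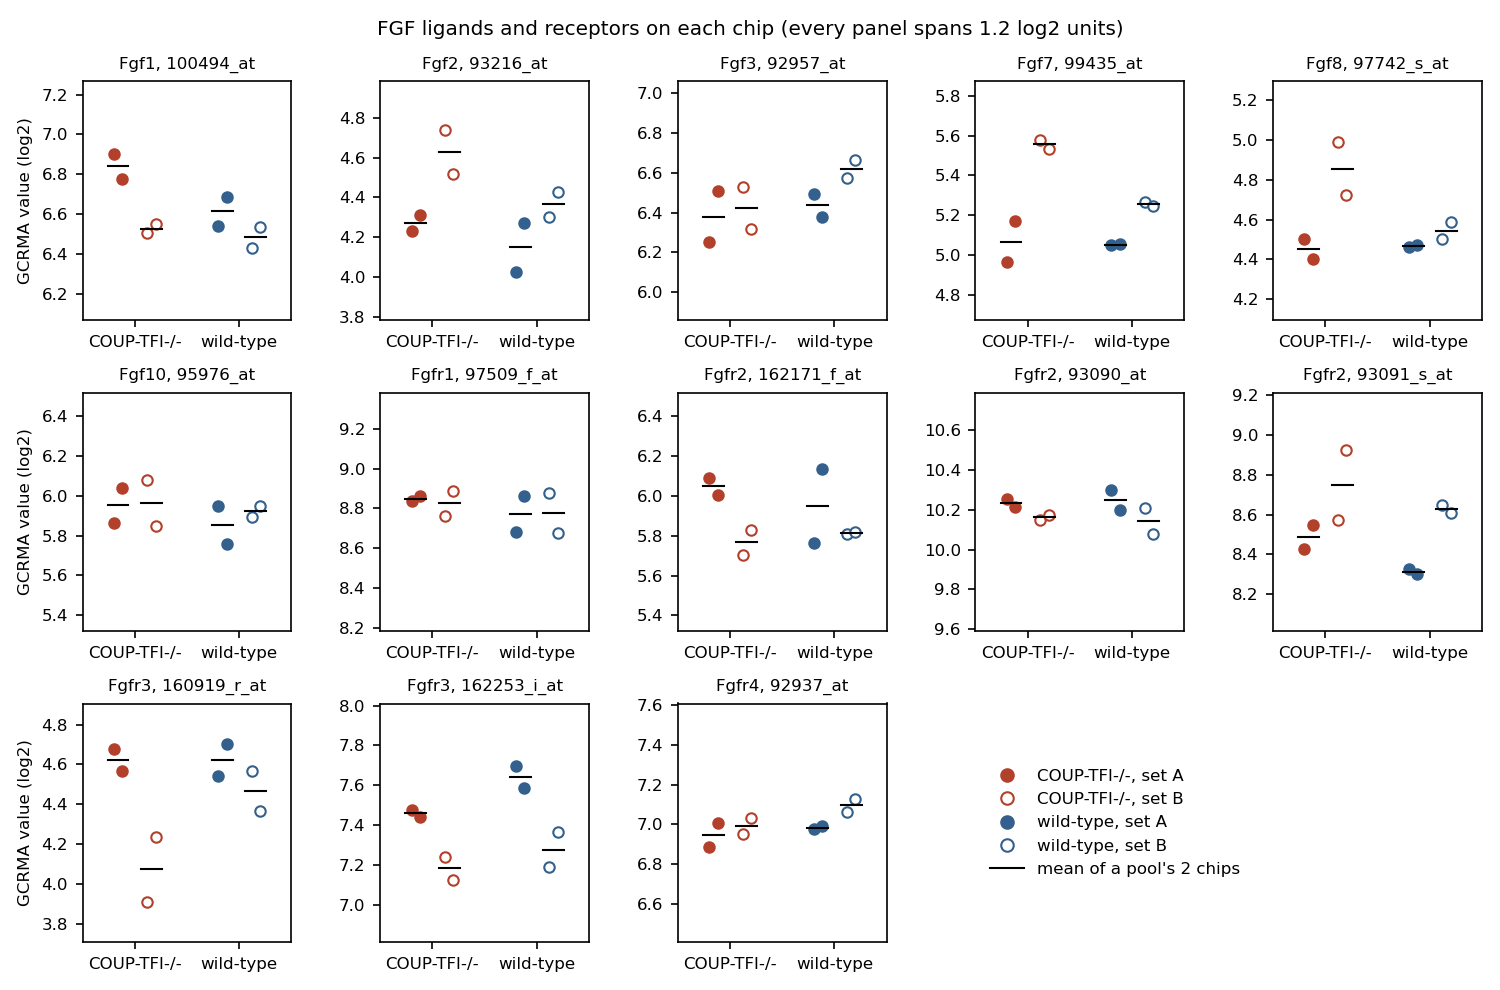
GCRMA value (log2, vertical axis) of each FGF probe set on each chip, COUP-TFI-/- chips on the left and wild-type chips on the right, filled points for set A, open points for set B and a bar at the mean of a pool's duplicate chips. Every panel spans the same range of 1.2 log2 units, and the groups overlap in at least 1 set in all 13 panels.

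**Figure D2:**
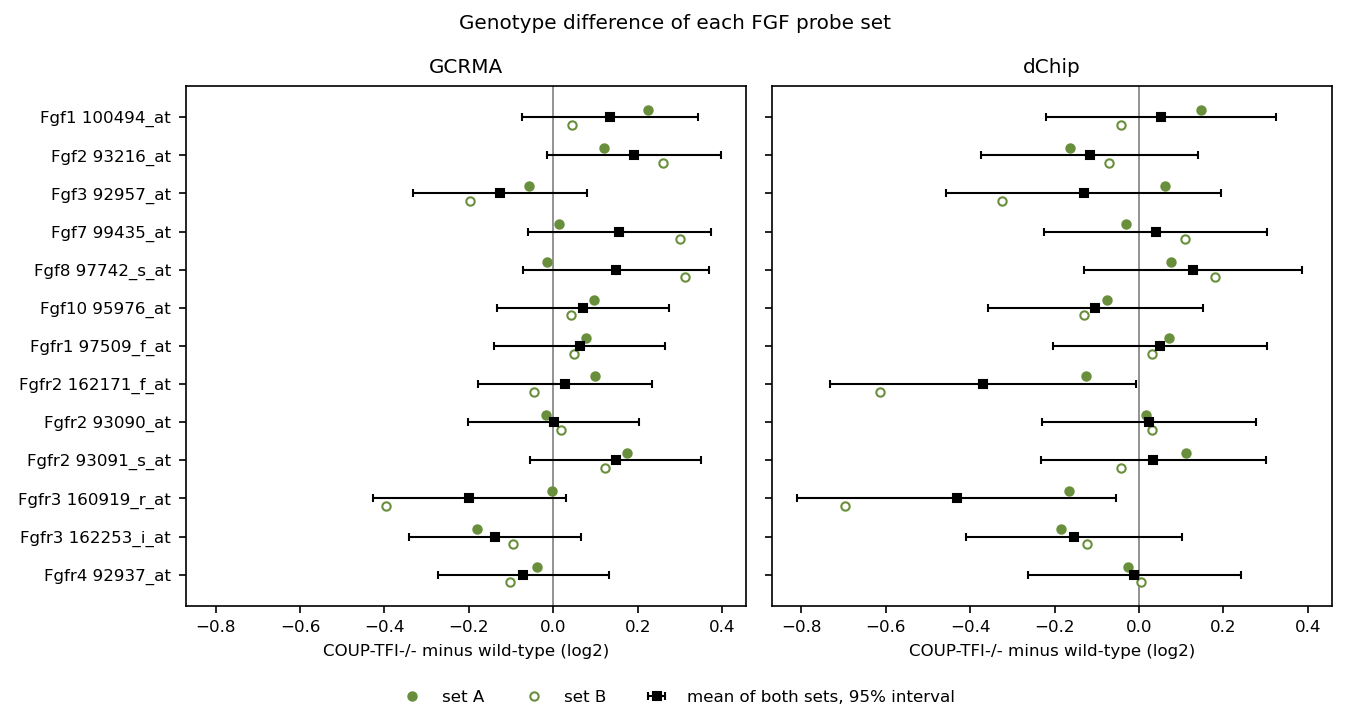
Difference COUP-TFI-/- minus wild-type (log2, horizontal axis) of each FGF probe set on GCRMA (left) and dChip (right) values, with squares for the mean of both sets and its 95% interval and circles for the difference within set A (filled) and set B (open). All GCRMA intervals cross 0, and on dChip values those of Fgfr2 162171_f_at and Fgfr3 160919_r_at do not.

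Among the ligands, Fgf3 and Fgf10, which act together in early ear formation and bind the epithelial form of Fgfr2, showed little difference. Fgf3 (92957_at) had 6.25, 6.51, 6.53 and 6.32 on the COUP-TFI-/- chips (the chips of set A before those of set B, here and for each other gene) and 6.49, 6.38, 6.57 and 6.67 on the wild-type chips. The mutant chips lay below the wild-type ones in set B alone, and the difference was -0.13 ± 0.10 on GCRMA values and -0.13 ± 0.13 on dChip values (log2, ± SE, as for the other differences). Fgf10 (95976_at) had 5.86, 6.04, 6.08 and 5.85 in COUP-TFI-/- and 5.95, 5.76, 5.90 and 5.95 in wild-type. Its chips were interleaved in both sets, and the sign of the difference depended on the normalization, at 0.07 ± 0.10 on GCRMA and -0.10 ± 0.10 on dChip values.

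Fgf7 and Fgf8 had their highest GCRMA values on the COUP-TFI-/- chips of set B. Fgf7 (99435_at), a growth factor made by mesenchyme that acts on epithelium, had 4.96, 5.17, 5.58 and 5.53 in COUP-TFI-/- and 5.05, 5.05, 5.26 and 5.25 in wild-type. Fgf8 (97742_s_at), which inner hair cells release to induce the adjoining pillar cells, had 4.50, 4.40, 4.99 and 4.72 in COUP-TFI-/- and 4.46, 4.47, 4.50 and 4.59 in wild-type. For both genes the mutant chips of set B lay above all other chips, while the chips of set A were interleaved. Both levels were low, at percentile 16.4 of all probe sets on GCRMA values for Fgf7 and 9.71 for Fgf8. The difference was accordingly 0.30 in set B and 0.01 in set A for Fgf7, and 0.31 in set B and -0.01 in set A for Fgf8. The genotype by set interaction in limma on the 8 chips did not pass for either gene (adjusted p = 0.28 and 0.26), nor for any other of the 13 probe sets, while 0.958% of all probe sets passed. On dChip values the set B differences were smaller, 0.11 for Fgf7 and 0.18 for Fgf8. The striated muscle markers also differed more in set B, with a median difference of 0.49 there and 0.01 in set A. The lowest of them, Myf5, stood at 4.12 in COUP-TFI-/- and 4.12 in wild-type, and the part of muscle RNA in the Fgf7 and Fgf8 values was not tested.

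Fgf1 and Fgf2 are ligands without a classical secretion signal. Fgf1 (100494_at), which binds all the FGF receptors, had 6.90, 6.78, 6.51 and 6.55 in COUP-TFI-/- and 6.54, 6.69, 6.43 and 6.54 in wild-type. Both mutant chips exceeded both wild-type chips in set A but not in set B, and the difference was 0.13 ± 0.10 on GCRMA and 0.05 ± 0.11 on dChip values. Fgf2 (93216_at), basic FGF, had 4.23, 4.31, 4.74 and 4.52 in COUP-TFI-/- and 4.03, 4.27, 4.30 and 4.43 in wild-type on the GCRMA scale. As for Fgf7 and Fgf8, the mutant chips of set B lay above all other chips there, at a low level (percentile 7.80). On dChip values it had 160, 188, 176 and 205 in COUP-TFI-/- and 202, 187, 204 and 195 in wild-type. The GCRMA difference of 0.19 ± 0.10 was the highest of the 13, but the dChip difference was -0.12 ± 0.10, so the direction for Fgf2 was not settled by these data.

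Among the receptors, Fgfr1 (97509_f_at), which sensory progenitors of the cochlea require, had 8.84, 8.86, 8.76 and 8.89 in COUP-TFI-/- and 8.68, 8.86, 8.88 and 8.68 in wild-type. The groups overlapped fully, and the difference of 0.06 ± 0.10 on GCRMA and 0.05 ± 0.10 on dChip values had the same sign in both sets. Fgfr4 (92937_at) had 6.89, 7.01, 6.95 and 7.03 in COUP-TFI-/- and 6.98, 6.99, 7.06 and 7.13 in wild-type. Its mutant chips lay below the wild-type ones in set B and around them in set A, with a difference of -0.07 ± 0.10 on GCRMA and -0.01 ± 0.10 on dChip values.

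Fgfr2, the receptor of Fgf3, Fgf7 and Fgf10 in epithelium, is covered by 3 probe sets. Probe set 93090_at had 10.25, 10.21, 10.15 and 10.18 in COUP-TFI-/- and 10.30, 10.20, 10.21 and 10.08 in wild-type. This probe set gave the smallest difference of the 13, 0.00 ± 0.10, with a 95% interval from -0.20 to 0.20. Probe set 93091_s_at had 8.43, 8.55, 8.57 and 8.93 in COUP-TFI-/- and 8.33, 8.30, 8.65 and 8.61 in wild-type, a difference of 0.15 ± 0.10 on GCRMA and 0.03 ± 0.11 on dChip values. Its mutant chips were both higher in set A, whereas in set B 1 was lower and 1 higher than the wild-type chips. Probe set 162171_f_at had 6.09, 6.004, 5.70 and 5.83 in COUP-TFI-/- and 5.76, 6.14, 5.81 and 5.82 in wild-type on the GCRMA scale, a difference of 0.03 ± 0.10. On dChip values the same probe set had 76.5, 64.7, 34.0 and 53.9 in COUP-TFI-/- and 72.4, 81.3, 60.0 and 71.4 in wild-type, a log2 difference of -0.37 ± 0.15 whose interval ran from -0.73 to -0.01. After the mean of each set was taken off, the 3 probe sets correlated over the 8 chips with r of -0.47, 0.14 and 0.22, and with r of 0.26, -0.49 and -0.43 on the values as deposited, in the order 162171_f_at with 93090_at, 93090_at with 93091_s_at and 162171_f_at with 93091_s_at. The letters in a probe set's name mark designs that share probes with related sequences or relax the design rules, and the files do not say which part of a transcript each covers.

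Fgfr3, the receptor that supporting cells use to become pillar cells, was the only member with lower values in COUP-TFI-/- ears in both sets and with both normalizations for all its probe sets. Probe set 162253_i_at had 7.48, 7.44, 7.24 and 7.13 in COUP-TFI-/- and 7.70, 7.59, 7.19 and 7.37 in wild-type on the GCRMA scale. On dChip values it had 189, 177, 157 and 152 in COUP-TFI-/- and 215, 201, 162 and 175 in wild-type. The mutant chips lay below the wild-type ones in both sets on dChip values, and in set A alone on GCRMA values. The difference was -0.14 ± 0.10 on GCRMA values, with a 95% interval from -0.34 to 0.07, and -0.15 ± 0.10 on dChip values. Probe set 160919_r_at had 4.68, 4.57, 3.91 and 4.24 in COUP-TFI-/- and 4.54, 4.70, 4.57 and 4.37 in wild-type. Its lower values were in set B, where the difference was -0.40, against -0.00 in set A, and the dChip difference over both sets was -0.43 ± 0.15 with a 95% interval from -0.81 to -0.05. Neither Fgfr3 probe set passed the adjusted test, and the r between them over the 8 chips was 0.60 on the values as deposited and -0.03 after the set means were taken off.

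Counted over the family, no FGF probe set had all COUP-TFI-/- chips on 1 side of the wild-type chips within both sets on GCRMA values, where 8.26% of all probe sets did. On dChip values 1 of the 13 did, the Fgfr3 probe set 162253_i_at, where 8.15% of all probe sets did. The sign was the same in both sets on GCRMA values for 10 of the 13, beside 45.6% of all probe sets, and in both sets with both normalizations for 3 of the 13, beside 21.8%. Those 3 were Fgfr1, higher in COUP-TFI-/-, and the 2 probe sets of Fgfr3, lower.

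The members varied more between the hybridization sets than between the genotypes. The absolute difference between the sets exceeded that between the genotypes for 10 of the 13 probe sets on GCRMA values and for 10 on dChip values, with a median of 0.22 between sets and 0.13 between genotypes on GCRMA values. Over all probe sets the medians were 0.16 between sets and 0.06 between genotypes, so the order was not particular to the members. Of the 13, 5 were called for the set on GCRMA values, beside 25.8% of all probe sets, and 0 on dChip values, beside 11.7%. Fgf7 (set A minus set B -0.35 ± 0.10, adjusted p = 0.021), Fgf2 (-0.29 ± 0.10, adjusted p = 0.041) and Fgfr2 93091_s_at (-0.29 ± 0.10, adjusted p = 0.037) were lower in set A. Fgfr3 was higher in set A with both of its probe sets, 160919_r_at (0.35 ± 0.11, adjusted p = 0.025) and 162253_i_at (0.32 ± 0.10, adjusted p = 0.022). On dChip values the set difference was -0.38 ± 0.11 for Fgf7 (adjusted p = 0.075), 0.22 ± 0.15 for Fgfr3 160919_r_at and 0.28 ± 0.10 for Fgfr3 162253_i_at, but -0.09 ± 0.10 for Fgf2 and -0.02 ± 0.11 for Fgfr2 93091_s_at. On GCRMA values 5 of the 6 ligand probe sets had lower values in set A and 5 of the 7 receptor probe sets had higher ones. Some of these differences were near 0, such as 0.01 for Fgfr1, which had -0.20 on dChip values. On dChip values 5 of the 6 ligand probe sets were lower in set A, and of the receptor probe sets 4 were higher and 3 lower. Without the COUP-TFI-/- chip A1 the count of set calls was 0 and without the wild-type chip B1 it was 1. It was 3 without the COUP-TFI-/- chip B1 or B2 or the wild-type chip A2 or B2. Over all probe sets the count of set calls moved too, from 3205 of 12422 with all chips. It was 2046 without the COUP-TFI-/- chip A1 and 2252 without the wild-type chip B1.

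**Figure D3:**
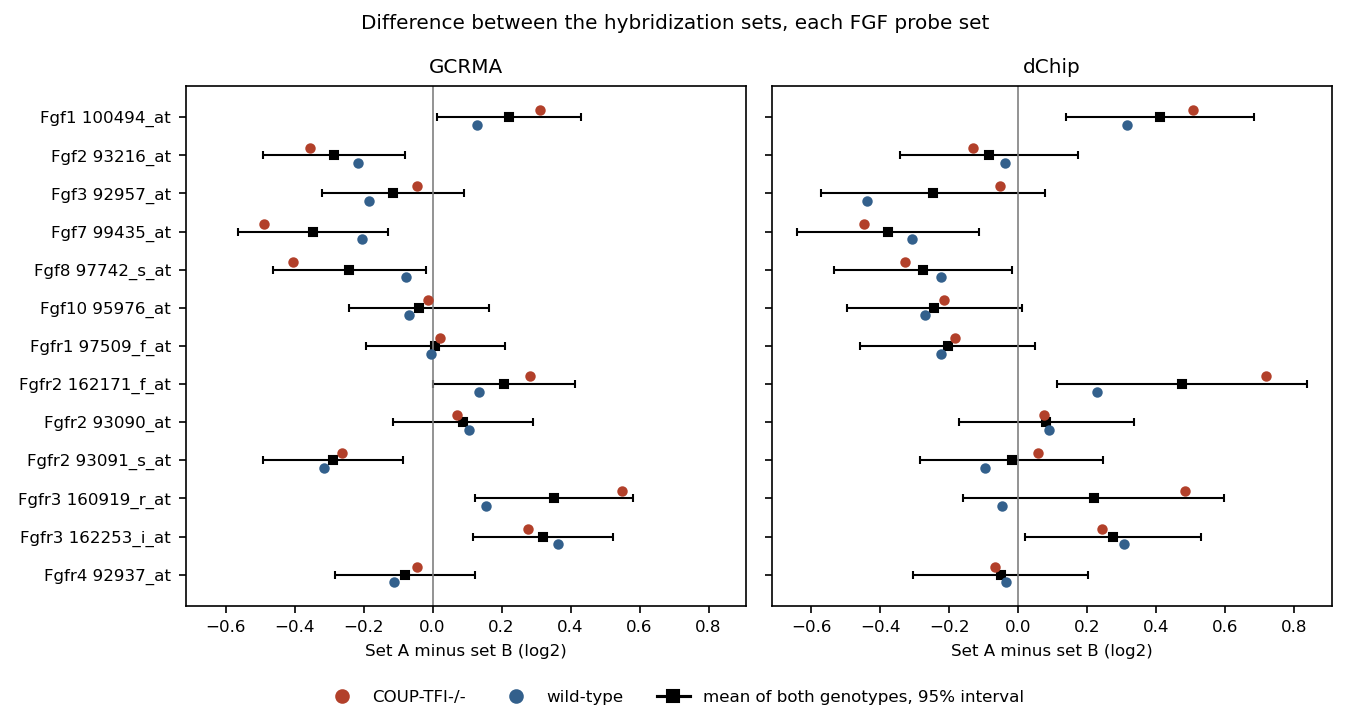
Difference set A minus set B (log2, horizontal axis) of each FGF probe set on GCRMA (left) and dChip (right) values, with circles for COUP-TFI-/- and for wild-type pools and squares for their mean with its 95% interval. Fgf7 lies near -0.35 and both Fgfr3 probe sets lie above 0.30 on GCRMA values, with COUP-TFI-/- and wild-type circles on the same side of 0.

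On GCRMA values all 4 chips of a set lay beyond all 4 of the other for 3 of the 13, against 37.1% of all probe sets, namely Fgf7, Fgfr2 93091_s_at and Fgfr3 162253_i_at. Cartilage markers were called lower in set A for 6 of 8 measured genes, with a median of -0.61 over the 8. For comparison, 25.8% of all probe sets were called for the set in either direction. The mean levels of the cartilage markers were 9.87 (set A) and 10.26 (set B) in COUP-TFI-/- and 9.71 (set A) and 10.27 (set B) in wild-type. Neuron markers were called higher in set A for 9 of 13, with a median of 0.43 over the 13. Their mean levels were 7.61 (set A) and 7.25 (set B) in COUP-TFI-/- and 7.62 (set A) and 7.31 (set B) in wild-type. The lowest neuron marker, Neurod1, had 3.64 in COUP-TFI-/- and 3.75 in wild-type, and the part of either tissue in the set differences of Fgf7 or Fgfr3 was not tested.

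The rest of the pathway was read from 4 lists with 88 genes, of which 54 were measured, 1 probe set per gene. None of the 54 was called for the genotype on GCRMA or dChip values. On GCRMA values 1 of the 54 had an unadjusted p under 0.05 in limma, beside 4.58% of all probe sets. The median difference of the 54 was 0.04 on GCRMA values, with 38 positive and 16 negative values, beside a median of 0.00 over all probe sets. Of the other FGF ligands 11 of 16 were measured, with a median of 0.03. Fgf17 (-0.06 ± 0.10) and Fgf5 (0.06 ± 0.10) were those with the same sign in both sets and both normalizations. Fgf9, which the otic epithelium sends to the surrounding mesenchyme, had 4.84 ± 0.07 in COUP-TFI-/- and 4.84 ± 0.05 in wild-type (SD, n = 2 pools each), and is given for its role, outside the rule for named genes.

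The coreceptors and heparan sulfate genes had 13 positive differences among 14 measured of 25 on GCRMA values, with a median of 0.06. On dChip values the median was 0.01, and Sdc1, Sdc4, Ext1, Kl and Gpc3 had negative differences. The share of positive differences over all probe sets was not counted, so the 13 cannot be read as particular to this list. Ndst2, which sulfates heparan chains, had a difference of 0.19 ± 0.10 and Sdc2, a syndecan that carries such chains, 0.04 ± 0.10. The chips did not overlap within either set on GCRMA values for Hspg2 (perlecan, 0.16 ± 0.10) and Sdc1 (syndecan-1, 0.12 ± 0.10), both higher in COUP-TFI-/- and both picked out after their values were seen. On dChip values their differences were 0.01 and -0.05. Of the 54 measured genes of the 4 lists, 3 had such non-overlap on GCRMA values, namely Hspg2, Sdc1 and Myc. Over all probe sets 8.26% did, so these 3 are not particular to the pathway. The adaptors and RAS-ERK chain had 9 positive and 9 negative differences among 18 measured of 26, with a median of -0.01. Among those with a common sign in both sets and normalizations, the furthest from 0 were Pik3r1 (a regulatory subunit of PI3 kinase, 0.15 ± 0.10), Akt1 (a kinase downstream of it, -0.13 ± 0.10) and Sos2 (an exchange factor that loads RAS, -0.12 ± 0.10), each with a 95% interval that crossed 0.

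Feedback and target genes are those that FGF signalling switches on in many tissues, and 11 of 21 were measured, with a median of 0.03. Dusp6, a phosphatase that silences ERK, had a difference of 0.08 ± 0.10, Spry4, a Sprouty inhibitor, -0.01 ± 0.10, and Etv4, an ETS factor, 0.06 ± 0.10. These genes are given as well-known readouts, outside the rule for named genes. Myc had the largest difference of the 54 genes, 0.27 ± 0.10 (adjusted p = 0.75), with 0.28 for set A and 0.27 for set B. Its COUP-TFI-/- chips all lay above the wild-type chips of the same set on GCRMA values but not on dChip values, where the difference was 0.22. Fos, an early gene of the ERK response, took opposite signs, -0.51 for set A against 0.60 for set B, with an SE of 0.17. Its genotype by set interaction passed (adjusted p = 0.0027), as for 0.958% of all probe sets, and Fos was also chosen after its values were seen.

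**Figure D4:**
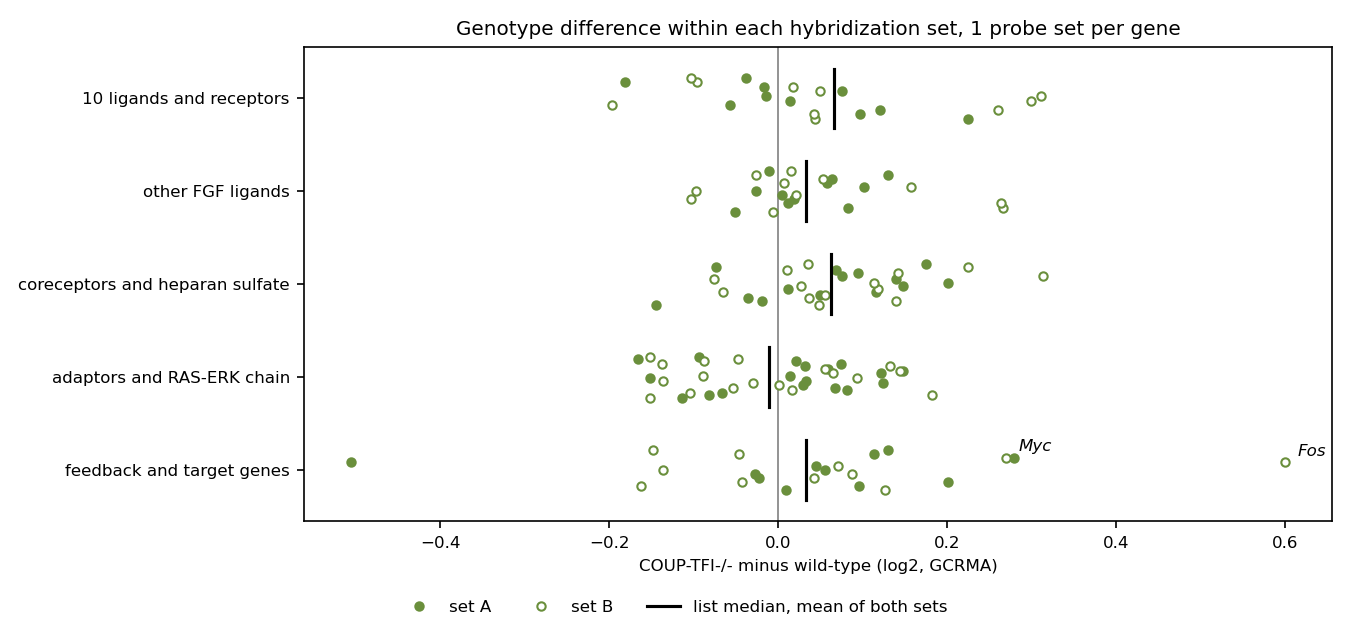
Difference COUP-TFI-/- minus wild-type (log2, GCRMA, horizontal axis) for 1 probe set per gene in the 10 ligands and receptors and the 4 other lists, with filled circles for set A, open circles for set B and a bar at each list's median over both sets. The list medians lie between -0.01 and 0.07, Myc stands at 0.28 and 0.27, and Fos lies at -0.51 in set A and 0.60 in set B.

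For the 4 receptor probe sets above the chip median, the genes outside the lists with the nearest pattern were looked up as the highest Pearson r over the 8 chips after the set means were taken off. The chips share their 4 RNA pools, so these r are a description of few independent points. For Fgfr1 they were Igfbp4 (0.97) and Mr1 (0.96), and for Fgfr2 93090_at Grhpr (0.97) and Hibadh (0.96). For Fgfr2 93091_s_at they were Cast (0.96) and Ezh2 (0.95), and for Fgfr3 162253_i_at Dnah8 (0.94) and Slc7a9 (0.94). None of these 8 genes was called for the genotype.

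Because COUP-TFI is known to bind repeats of the letters AGGTCA, the promoters of the members were searched for that 6-letter element on both strands. RefSeq windows of build GRCm38.p6, from 250 bases before to 50 bases after a transcript start, were matched by symbol for 7 of the 10 genes, with 8 windows in all. The element was present in 1 of the 8, that of Fgf7, and in 16.3% of 32851 windows in the table. A direct repeat of the element with 1 base (N) between the copies was in none of the 8 and in 0.0396% of all windows, and each such repeat is counted among the windows with the element too. The stretch of Fgf7 is shown because it is the 1 member window with a match, on the strand of the gene (chr2:126034408-126034657, plus strand), and it ends at the base before the start of the transcript. Capitals mark the element, which lies 47 to 42 bases before the start.
Fgf7: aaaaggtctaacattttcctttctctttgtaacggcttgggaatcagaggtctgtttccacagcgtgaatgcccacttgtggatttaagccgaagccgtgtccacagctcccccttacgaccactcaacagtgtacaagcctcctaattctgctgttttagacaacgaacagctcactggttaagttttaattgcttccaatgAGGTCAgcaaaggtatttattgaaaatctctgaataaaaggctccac
A match in these letters describes the sequence alone. The GC content over the 250 bases was 43.6% for Fgf7, against 44.0% to 72.8% in the other 7 windows.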

How the data were processed

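GCRMA and dChip values of 8 Affymetrix MG-U74Av2 chips, 4 from COUP-TFI-/- and 4 from wild-type newborn inner ears, were used. The log2 values were deposited by the authors after background correction, normalization and summary per probe set with GCRMA. The dChip values were deposited by the authors as model-based intensities on a linear scale. They were set to at least 1 (89 values were lower) and taken to log2 here. Scanner files were not used here. The background model of GCRMA draws dim probe sets together, which can shrink their differences. No genome build is named for them. The 66 control probe sets among 12488 were dropped, and of the rest 10833 carry 1 symbol in the platform annotation, 396 several and 1193 none.

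The replicate was the RNA pool. Duplicate chips were averaged, and genotype was tested in limma 3.58.1 (R 4.3.3, statmod 1.5.0) on 4 pool means with the hybridization set as a block. This leaves 1 residual degree of freedom, to which the variance prior over all probe sets added 14.3 for GCRMA and 4.55 for dChip. P-values were adjusted by Benjamini-Hochberg over all probe sets with a threshold of 0.05. The SEs, intervals and p-values thus rest mostly on the prior shared by all probe sets, and little on the spread of a probe set's own few pools. The number of chips limits the precision. The letter of the labels was read as the hybridization set of the methods and pairs the pools. Over all probe sets the difference between the sets in COUP-TFI-/- correlated with that in wild-type (r = 0.752 for GCRMA and 0.688 for dChip). The interaction was fitted on 8 chips, so that it rests on duplicate chips. The scripts were tested on simulated data.

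All members were named with every probe set, and from each pathway list the genes past the threshold, otherwise up to 3 with the furthest difference and a common sign in both sets and normalizations. Dusp6, Spry4, Etv4, Fgf9, Hspg2, Sdc1 and Fos were added outside this rule. Members and lists were chosen with earlier results of these data known. Promoters were read with Python 3.11.15 and pandas 2.3.3. The alternatives were no block, chips in place of pools, a random block, the methods' 2-way analysis of variance, added quantile normalization, a filter at the 25th percentile, a trended prior, a dChip floor of 16, all probe sets of the pathway genes, and leaving out each chip.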

Additional observations from a re-analysis of the deposited data

Results flagged for a closer look

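Within the groups of 4 chips, 1 value of the FGF probe sets stood apart from the others. It was Fgfr2 162171_f_at on the wild-type chip A2, at 6.14 on the GCRMA scale, where the other 3 wild-type chips lay between 5.76 and 5.82. Its gap to the nearest chip was 0.851 of the whole range of the group, above Dixon's 95% critical value for 4 values. In all, 52 groups were examined (13 probe sets, both genotypes and both normalizations), and chance alone marks about 1 in 20 such groups, or 2.6 of 52. Without this chip the genotype difference of that probe set was 0.12, against 0.03 with all chips, with no call in either case.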

How the results depend on the processing

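The count of FGF probe sets called for the genotype was 0 under every alternative run, on GCRMA and dChip values. Without the replicate block it was 0 as well, and the block and the pairing of the pools by set moved the calls over all probe sets, with 13 called with the block and 0 without it on GCRMA values. With chips as replicates 159 were called, with the pool as a random block 27, with the methods' 2-way analysis of variance 1 and with added quantile normalization 2, and leaving out 1 chip gave between 1 and 54. The 2 FGF probe sets with an unadjusted p under 0.05 on dChip values also depended on the setting. Their count was 0 without the COUP-TFI-/- chip A2, B1 or B2. It was also 0 with the filter on low values, without the block and with the floor of 16, and 1 or 2 otherwise.

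The count of FGF probe sets called for the set (5 on GCRMA, 0 on dChip values) was 8 on GCRMA and 8 on dChip values with chips as replicates. It was 2 and 5 with the 2-way analysis of variance, 3 and 3 with quantile normalization, 2 and 1 with the filter on low values. On dChip values it was 5 with a random block and 2 with a trended prior. Leaving out 1 chip gave 0 to 5 on GCRMA and 0 to 3 on dChip values. Over all probe sets the count of set calls was 3205 of 12422 on GCRMA and 1449 of 12421 on dChip values. It was 5731 and 6275 with chips as replicates, 3747 and 4891 with the 2-way analysis of variance, and 2664 and 2326 with quantile normalization. It was 2851 of 9316 and 2268 of 9315 with the filter on low values. On dChip values it was 4727 with a random block and 2814 with a trended prior. With 1 chip left out it was 2046 to 3309 and 570 to 2293. Non-overlap within both sets was found for 0 to 3 FGF probe sets when 1 chip was left out, and for 1 on dChip values, beside 8.15% of all probe sets. With 1 chip left out, 1 pool keeps only 1 chip, which makes non-overlap easier for any probe set. The share of all probe sets was not counted for that setting, so the 0 to 3 cannot be read as particular to the members.

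On dChip values the genotype difference turned to -0.117 for Fgf2, -0.103 for Fgf10 and -0.369 for Fgfr2 162171_f_at, and the set difference of Fgfr1 to -0.204. With quantile normalization the genotype difference of Fgfr2 93090_at turned to -0.00694. Leaving out 1 chip moved the genotype difference between -0.0665 and 0.12 for Fgfr2 162171_f_at and between -0.0312 and 0.0327 for Fgfr2 93090_at, and the set difference between -0.0972 and 0.0168 for Fgf10 and between -0.0426 and 0.0594 for Fgfr1, none of them called.

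For single probe sets the alternatives were read on GCRMA values, with the main dChip fit beside them. Over these the lowest adjusted p of an FGF genotype difference was 0.289, for Fgf2 in limma with chips as replicates. No cause of these shifts was tested. With 2 pools per genotype the 95% intervals of the GCRMA genotype differences reached -0.43 and 0.40. Differences of that size or larger also missed the adjusted threshold elsewhere on the chip, such as -0.48 for Tectb (adjusted p = 0.11). In all, 4 of the 13 GCRMA levels lay below the 25th percentile of all probe sets. These were Fgf2, Fgf7, Fgf8 and Fgfr3 160919_r_at, of which Fgf8 alone was not called for the set on GCRMA values.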
